A study of Triticum polonicum with 8 samples.

Results

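The genes of the long arms of wheat chromosomes 5A and 5B were followed through the roots of seedlings grown with and without cadmium, zinc and extra calcium and potassium. Members were all genes whose identifier carries the arm code 5AL or 5BL and whose mean over the 8 libraries was at least 1 CPM (the count of a gene scaled to a common library size, written as counts per 1e6). The rule kept 4858 genes, 2398 on 5AL and 2460 on 5BL, of 124856 genes listed and of 51500 genes anywhere with a mean CPM of at least 1. The rule used the mean level alone, and a gene read in few libraries can enter through those where it is high. Each identifier also holds a scaffold number (a scaffold is 1 assembled piece of an arm) and a serial number, by which neighbouring genes were recognised.

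Wheat chromosomes come in homoeologous groups, sets of related chromosomes inherited from different grass ancestors, so that most genes of 5AL have a counterpart on 5BL. Tetraploid wheats such as Polish wheat carry an A and a B subgenome and lack the D subgenome of bread wheat. The group 5 long arms are known for the vernalization locus that sets the need for winter cold, for the domestication locus Q on 5AL and for the pairing locus Ph1 on 5BL, which keeps homoeologous chromosomes from pairing at meiosis, and 5AL exchanged its end with 4AL early in wheat history. Cadmium is toxic to roots and has no known nutritional role in wheat, whereas zinc is an essential cofactor of many enzymes that becomes toxic in excess. The files do not pair identifiers with gene names, so none of these loci was looked up and all genes below are given by identifier and arm.

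The series was made to ask how Ca and K act on roots under Cd and Zn. The material was dwarf Polish wheat (Triticum polonicum), and roots were taken at 4 weeks of age after 1 week of treatment. Treatments in N2_Cd_Zn, N2_Cd, N2_Zn and N2 had 8 mM calcium nitrate and 10 mM potassium nitrate, while N0_Cd_Zn, N0_Cd, N0_Zn and N0 had 4 mM and 5 mM, so nitrate was raised together with Ca and K, to 26 mM in the N2 libraries against 13 mM in the N0 libraries. Cd in a name stands for 80 µM CdCl2, Zn stands for 500 µM zinc in place of the basal 5 µM, and names without Cd had no CdCl2. Each treatment is 1 library, so differences between single libraries have no replicate check and carry no p-value. Per the labels, treatments had 3 biological replicates, but the sources do not say how these became 1 library. These are whole roots, in which fewer cells of a type and less RNA per cell cannot be told apart, and without gene names the tissue could not be checked against root markers.

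Library totals lay between 20000875 and 25241789 counts, which places 3 counts at 0.119 to 0.150 CPM. N0_Cd_Zn stood apart among the members. Its members were 2-fold or more apart from N2 in 1200 cases (24.7%, against 25.2% of all genes) and from N0 in 1425 cases (29.3%, against 29.1% of all genes). From N0_Cd they were apart in 1760 cases (36.2%, against 34.8% of all genes) and from N0_Zn in 2285 cases (47.0%, against 44.6% of all genes). The library with both metals at basal Ca/K was thus nearer to both libraries without added metal than to any of the other 5. N2_Cd_Zn was nearest to N2_Zn, with 843 members apart (17.4%, against 16.9% of all genes). N0_Zn was nearest to N0, with 1171 members apart (24.1%, against 23.7% of all genes). It too was far from other libraries, with 2265 members apart from N2_Cd (46.6%, against 44.9% of all genes). Whether N0_Cd_Zn received another treatment than its label gives was not tested. Counts over matched pairs, tested effects, extreme values and the Cd by Zn patterns are also given without N0_Cd_Zn, a choice made in part after the data were seen.

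A somewhat larger share of the listed genes was read on 5AL than on 5BL. On 5AL 2398 of 4214 listed genes were members (56.9%), and 598 (14.2%) had no read in any library. On 5BL 2460 of 4704 were members (52.3%), and 860 (18.3%) had no read. Among the 27 arms of the A and B subgenomes, 5AL ranked 9 and 5BL ranked 16 in the share of members. At the threshold, the lowest member of 5AL was TRIAE_CS42_5AL_TGACv1_376159_AA1232950 with a mean of 1.001 CPM and the gene just below it was TRIAE_CS42_5AL_TGACv1_379808_AA1256870 with 0.994 CPM. The corresponding genes of 5BL were TRIAE_CS42_5BL_TGACv1_406687_AA1348610 with 1.001 CPM and TRIAE_CS42_5BL_TGACv1_404653_AA1307390 with 0.995 CPM.

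Levels on the arms were close to each other. The median of the mean CPM was 8.43 on 5AL, 8.15 on 5BL and 7.08 over all genes with a mean CPM of at least 1. Per length, the median of FPKM (the depth-scaled count per kilobase of gene) was 4.51 on 5AL, 4.47 on 5BL and 3.98 over all genes. The 35032 such genes of the other A and B arms had medians of 8.39 CPM and 4.50 FPKM, close to both group 5 long arms. Gene length had a median of 1825.5 bp on 5AL, 1846 bp on 5BL and 1809 bp over all genes. At least 10 CPM was reached by 1069 members of 5AL and 1083 of 5BL, and at least 100 CPM by 84 and 87. The spread over libraries, as the SD of log2 CPM, had a median of 0.60 on 5AL, 0.61 on 5BL and 0.59 over all genes, and it was above 1 in 26.7% of 5AL members, 27.0% of 5BL members and 26% of all genes. The ratio of 5AL to 5BL was 1.04 for the median CPM and 1.01 for the median FPKM.

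Each arm held 5.38% to 6.19% of a library's counts. The share of 5AL was 5.65% in N2_Cd_Zn, 6.19% in N2_Cd, 5.77% in N2_Zn, 5.78% in N2, 5.88% in N0_Cd_Zn, 5.79% in N0_Cd, 5.38% in N0_Zn and 5.55% in N0. The share of 5BL was 5.44% in N2_Cd_Zn, 5.86% in N2_Cd, 5.48% in N2_Zn, 5.58% in N2, 5.79% in N0_Cd_Zn, 5.71% in N0_Cd, 5.50% in N0_Zn and 5.62% in N0. The Wilson 95% interval, which covers counting error only, ran from 6.18% to 6.20% for 5AL in N2_Cd and from 5.37% to 5.39% for 5AL in N0_Zn. Both arms were highest in N2_Cd, while 5AL was lowest in N0_Zn and 5BL in N2_Cd_Zn.

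Counts on 5AL divided by counts on 5BL gave 1.04 in N2_Cd_Zn, 1.06 in N2_Cd, 1.05 in N2_Zn and 1.04 in N2, against 1.02 in N0_Cd_Zn, 1.01 in N0_Cd, 0.979 in N0_Zn and 0.988 in N0. All 4 ratios at raised Ca/K were above all 4 at basal Ca/K. The strongest genes entered into this gap. Without the 10 strongest genes of each arm the ratio was 1.04 in N2_Cd_Zn, 1.06 in N2_Cd, 1.06 in N2_Zn and 1.04 in N2, against 1.03 in N0_Cd_Zn, 1.06 in N0_Cd, 1.02 in N0_Zn and 1.04 in N0, and the groups overlapped. Those 10 genes of 5BL held 19.5% of the 5BL counts in N0 and 13.7% in N2_Zn.

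**Figure D1:**
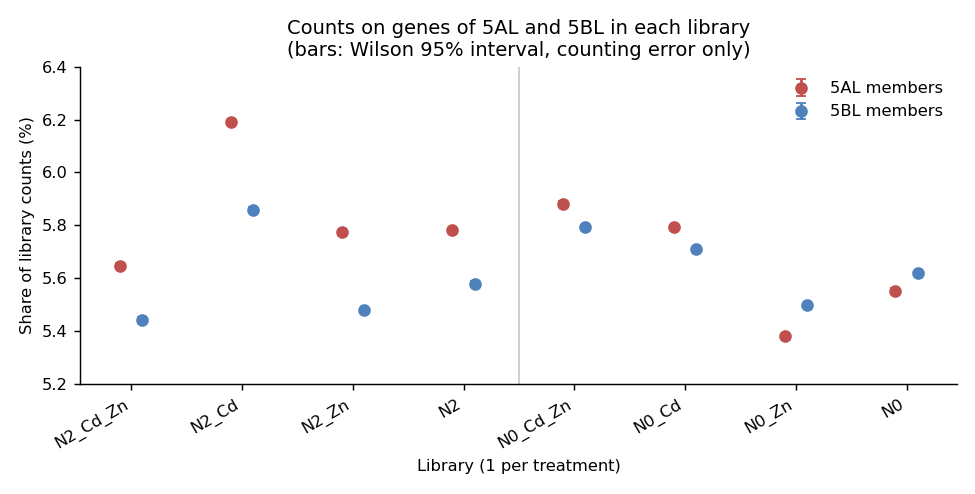
Share of each library's counts (vertical axis, percent, not starting at 0) that fell on members of 5AL and 5BL in the 8 libraries, raised Ca/K left of the line and basal Ca/K right of it. The 95% intervals are narrower than the points; both arms peak in N2_Cd, at 6.19% and 5.86%, and 5AL lies above 5BL in 6 of the 8 libraries.

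The strongest genes were read at a high level in every treatment. TRIAE_CS42_5AL_TGACv1_374650_AA1205560, a gene of 3314 bp with a mean of 621 FPKM, had CPM values of 1924 in N2_Cd_Zn, 2911 in N2_Cd, 1874 in N2_Zn, 1760.4 in N2, 1784 in N0_Cd_Zn, 2398 in N0_Cd, 2102 in N0_Zn and 1711 in N0. It was highest in N2_Cd and N0_Cd, the libraries with Cd alone. TRIAE_CS42_5BL_TGACv1_404933_AA1315500, a gene of 2290 bp with a mean of 1343 FPKM, had CPM values of 3093 in N2_Cd_Zn, 4033 in N2_Cd, 2648 in N2_Zn, 2711 in N2, 2473 in N0_Cd_Zn, 3683 in N0_Cd, 3254 in N0_Zn and 2715 in N0, again with both Cd-only libraries on top. The next genes of each arm, TRIAE_CS42_5AL_TGACv1_375394_AA1220930 and TRIAE_CS42_5BL_TGACv1_407358_AA1356170, averaged 521 and 833 FPKM and were both highest in N0_Cd_Zn, at 2153 and 2664 CPM.

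The most and the least variable members with a mean of at least 20 CPM spanned a wide range. TRIAE_CS42_5BL_TGACv1_407192_AA1354220 had the smallest SD of log2 CPM among 622 such members of 5BL, 0.06, with CPM values of 32.8 in N2_Cd_Zn, 34.7 in N2_Cd, 31.6 in N2_Zn, 38.1 in N2, 31.9 in N0_Cd_Zn, 32.2 in N0_Cd, 28.2 in N0_Zn and 30.4 in N0. On 5AL the smallest SD, 0.09 among 639 members, belonged to TRIAE_CS42_5AL_TGACv1_378344_AA1252760, whose lowest value was 25.9 CPM in N0_Zn and whose highest was 37.6 CPM in N2. Both genes were nearly level over all treatments. At the other end, TRIAE_CS42_5BL_TGACv1_404270_AA1293200 had an SD of 3.73, with CPM values of 0.1 in N2_Cd_Zn, 5.38 in N2_Cd, 0.0916 in N2_Zn, 129 in N2, 15.9 in N0_Cd_Zn, 0.84 in N0_Cd, 0.0396 in N0_Zn and 22.2 in N0. This gene was high without metal, at both Ca/K levels, and in N0_Cd_Zn, and it was near 0 in every library with Zn except N0_Cd_Zn.

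The treatments were compared by counting members at least 2-fold apart between single libraries, on TMM-scaled CPM (a scaling that evens out library composition) with a prior count of 2. All 10 comparisons gave shares close to those over all genes. All genes include 7133 without an arm code and those of the D arms. Over the other A and B arms, 14.1% were higher and 10.6% lower in N0_Cd against N0. In N2_Zn against N0_Zn these arms had 25.2% higher and 17.3% lower. The share of members apart in 5AL minus that in 5BL lay between -1.20 and 1.28 percentage points over the 10 comparisons. Folds of named genes are ratios of TMM-scaled counts with a 95% interval for counting error, and a fold against 0 counts is a lower bound against 3 counts in that library. Reads may have been shared between near-identical copies on 5AL and 5BL, which makes single-gene values uncertain.

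**Figure D2:**
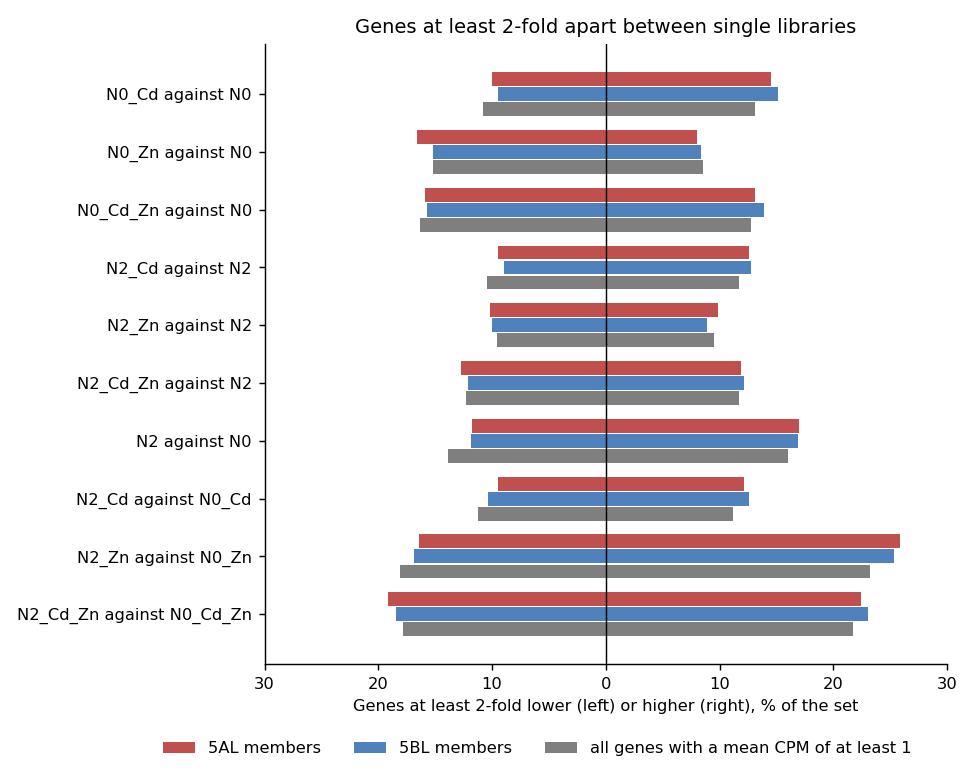
Percentage of genes at least 2-fold higher (right) or lower (left) in each of the 10 comparisons of single libraries, for 5AL members, 5BL members and all genes with a mean CPM of at least 1. The bars of both arms lie close to those of all genes in every comparison, and the widest bars are those of N2_Zn against N0_Zn, with 25.9% of 5AL and 25.3% of 5BL higher.

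Cd at basal Ca/K had more members higher than lower. In N0_Cd against N0, 722 members were higher (14.9%, against 13.1% of all genes) and 471 lower (9.70%, against 10.8% of all genes). The arms contributed alike, with 349 higher and 239 lower on 5AL and 373 higher and 232 lower on 5BL. The largest ratio on 5AL was that of TRIAE_CS42_5AL_TGACv1_378605_AA1254000, with 1885 counts against 70 (25.4-fold higher, 20 to 32.7), and on 5BL that of TRIAE_CS42_5BL_TGACv1_405222_AA1322420, with 1247 counts against 84 (14-fold higher, 11.2 to 17.7). The 5AL gene was also high in N2_Cd, at 84.8 CPM against 9.35 CPM in N2, whereas the 5BL gene was lower there, at 4.51 CPM in N2_Cd against 20.5 CPM in N2. The lowest ratios belonged to TRIAE_CS42_5AL_TGACv1_374454_AA1200520, with 81 counts against 1177 (15.4-fold lower, 12.3 to 19.5), and to TRIAE_CS42_5BL_TGACv1_404270_AA1293200, with 21 counts against 537 (27.1-fold lower, 17.6 to 44.2).

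With Cd at raised Ca/K the higher side was again the larger. In N2_Cd against N2, 617 members were higher (12.7%, against 11.7% of all genes) and 448 lower (9.22%, against 10.5% of all genes), with 302 and 315 of the higher and 227 and 221 of the lower ones on 5AL and 5BL. Without a scaling factor, which put the median of all genes at -0.18 on the log2 scale, 512 were higher and 554 lower, so the direction of this balance depended on the scaling. TRIAE_CS42_5AL_TGACv1_374534_AA1202570 had 627 counts against 0 (at least 273-fold higher) and no read in any library other than N2_Cd. TRIAE_CS42_5BL_TGACv1_408394_AA1363220 had 687 counts against 0 (at least 299-fold higher) and at most 2 reads in any other library. The 5AL gene is the single member with at least 10 reads in 1 library and none elsewhere. Both genes met the mean of 1 CPM only through N2_Cd, the library where they are high. The lowest ratios were those of TRIAE_CS42_5AL_TGACv1_374822_AA1209630, with 7 counts against 871 (95.3-fold lower, 46 to 238), and TRIAE_CS42_5BL_TGACv1_404733_AA1309500, with 29 counts against 1676 (44.2-fold lower, 30.7 to 66.3).

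Zn at basal Ca/K went with lower values. In N0_Zn against N0, 398 members were higher (8.19%, against 8.54% of all genes) and 773 lower (15.9%, against 15.2% of all genes). On 5AL 192 were higher and 399 lower, and on 5BL 206 were higher and 374 lower. TRIAE_CS42_5AL_TGACv1_374196_AA1193340 had 3491 counts against 363 (10.2-fold higher, 9.13 to 11.4), and it was highest in the libraries with Zn at raised Ca/K, with 381 CPM in N2_Zn against 64.7 CPM in N2. TRIAE_CS42_5BL_TGACv1_405002_AA1317590 had 1659 counts against 209 (8.4-fold higher, 7.27 to 9.74) but 14.9 CPM in N2_Zn against 11.5 CPM in N2. TRIAE_CS42_5AL_TGACv1_375422_AA1221320 was low under Zn, with 18 counts against 936 (49.1-fold lower, 30.9 to 83.3), and so was TRIAE_CS42_5BL_TGACv1_404270_AA1293200, with 1 count against 537 (508-fold lower, 90.7 to 20085).

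Zn at raised Ca/K split evenly. In N2_Zn against N2, 455 members were higher (9.37%, against 9.49% of all genes) and 490 lower (10.1%, against 9.53% of all genes). Of these, 237 higher and 245 lower lay on 5AL, and 218 higher and 245 lower lay on 5BL. Without a scaling factor 330 were higher and 621 lower, and among the 3135 members with a mean of at least 5 CPM 261 were higher and 163 lower, so no direction of this balance held over the settings. TRIAE_CS42_5AL_TGACv1_376955_AA1242720 had 450 counts against 3 (197-fold higher, 67.1 to 960.3), and it was also read in N2_Cd, at 17.1 CPM, and in N2_Cd_Zn, at 6.4 CPM, while it stayed at or below 0.436 CPM in N2 and in all libraries at basal Ca/K. TRIAE_CS42_5BL_TGACv1_404755_AA1310030 had 1372 counts against 89 (20.3-fold higher, 16.4 to 25.4). The lowest were TRIAE_CS42_5AL_TGACv1_375169_AA1217160, with 8 counts against 1328 (126-fold lower, 63.9 to 293), and TRIAE_CS42_5BL_TGACv1_404270_AA1293200, with 2 counts against 3227.

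Both metals together were set against no metal at each Ca/K supply. In N0_Cd_Zn against N0, 657 members were higher (13.5%, against 12.8% of all genes) and 768 lower (15.8%, against 16.3% of all genes), with 314 higher and 381 lower on 5AL and 343 higher and 387 lower on 5BL. The median log2 ratio of all genes was -0.10 there and that of the members -0.07, and without a scaling factor the balance turned to 763 higher and 655 lower. TRIAE_CS42_5AL_TGACv1_374184_AA1192740 had 563 counts against 18 (32.1-fold higher, 20.1 to 54.6), and TRIAE_CS42_5BL_TGACv1_406045_AA1339740 had 676 counts against 11 (63.1-fold higher, 35.1 to 127). In the remaining 6 libraries the 5AL gene had between 0.238 and 6.30 CPM and the 5BL gene between 0 and 2.69 CPM, so both were set apart by N0_Cd_Zn itself. TRIAE_CS42_5AL_TGACv1_374696_AA1206820 had 79 counts against 1701 (21-fold lower, 16.7 to 26.6), and TRIAE_CS42_5BL_TGACv1_405157_AA1321340 had 138 counts against 944 (6.66-fold lower, 5.57 to 8.02).

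In N2_Cd_Zn against N2, 584 members were higher (12%, against 11.7% of all genes) and 603 lower (12.4%, against 12.3% of all genes), with 285 higher and 305 lower on 5AL and 299 higher and 298 lower on 5BL. Without a scaling factor 484 were higher and 702 lower. TRIAE_CS42_5AL_TGACv1_379144_AA1255620 had 2986 counts against 338 (11.9-fold higher, 10.7 to 13.4), and its CPM values were 149 in N2_Cd_Zn, 11.1 in N2_Cd, 169.6 in N2_Zn, 13.6 in N2, 9.16 in N0_Cd_Zn, 15 in N0_Cd, 11.4 in N0_Zn and 1.16 in N0. It was over 100 CPM in both libraries with Zn at raised Ca/K and under 20 CPM in the other 6. TRIAE_CS42_5BL_TGACv1_729645_AA2172300 had 526 counts against 46 (15.5-fold higher, 11.4 to 21.4). The lowest ratios were those of TRIAE_CS42_5AL_TGACv1_374480_AA1201250, with 1 count against 509 (376-fold lower, 67.3 to 14899), and TRIAE_CS42_5BL_TGACv1_404270_AA1293200, with 2 counts against 3227.

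Raised Ca/K without metal had more members higher than lower. In N2 against N0, 822 members were higher (16.9%, against 16% of all genes) and 575 lower (11.8%, against 13.8% of all genes), with 407 higher and 283 lower on 5AL and 415 higher and 292 lower on 5BL. Without a scaling factor, which put the median of all genes at 0.26 on the log2 scale, 1092 were higher and 432 lower. Among members with a mean of at least 5 CPM, 392 were higher and 382 lower (12.5% and 12.2%, against 12.2% and 14.2% of all genes at that level). TRIAE_CS42_5AL_TGACv1_377499_AA1247400 had 707 counts against 3 (192-fold higher, 65.5 to 935), and TRIAE_CS42_5BL_TGACv1_404374_AA1297310 had 613 counts against 5 (100.1-fold higher, 42.6 to 309). Both genes had at least 5 CPM in N2_Cd_Zn and N0_Cd_Zn as well, and less than 1 CPM in N2_Zn, N0_Cd, N0_Zn and N0. TRIAE_CS42_5AL_TGACv1_379003_AA1255360 had 48 counts against 2099 (53.6-fold lower, 40.3 to 72.9), and TRIAE_CS42_5BL_TGACv1_405157_AA1321340 had 20 counts against 944 (57.8-fold lower, 37.2 to 95.1).

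Under Cd alone the Ca/K levels differed in fewer members. In N2_Cd against N0_Cd, 601 members were higher (12.4%, against 11.2% of all genes) and 482 lower (9.92%, against 11.3% of all genes), with 292 higher and 228 lower on 5AL and 309 higher and 254 lower on 5BL. The highest ratios belonged to the genes of N2_Cd named above, TRIAE_CS42_5AL_TGACv1_374534_AA1202570 with 627 counts against 0 (at least 236-fold higher) and TRIAE_CS42_5BL_TGACv1_408394_AA1363220 with 687 counts against 1 (777-fold higher, 139 to 30717). TRIAE_CS42_5AL_TGACv1_374914_AA1211820 had 25 counts against 4676 (165-fold lower, 112 to 256), and TRIAE_CS42_5BL_TGACv1_405234_AA1322970 had 123 counts against 1743 (12.5-fold lower, 10.4 to 15.2). The 5BL gene was lower in every N2 library than in any N0 library, with CPM values of 15 in N2_Cd_Zn, 5.66 in N2_Cd, 6.64 in N2_Zn and 12 in N2, against 32.7 in N0_Cd_Zn, 69.7 in N0_Cd, 42.3 in N0_Zn and 47.1 in N0.

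Under Zn alone the Ca/K levels were furthest apart. In N2_Zn against N0_Zn, 1243 members were higher (25.6%, against 23.2% of all genes) and 809 lower (16.7%, against 18.1% of all genes), with 620 higher and 394 lower on 5AL and 623 higher and 415 lower on 5BL. TRIAE_CS42_5AL_TGACv1_376614_AA1239070 had 783 counts against 1 (794-fold higher, 142 to 31419). TRIAE_CS42_5BL_TGACv1_405329_AA1325190, a gene of 2973 bp, had 4108 counts against 42 (99.2-fold higher, 73.3 to 138). Its CPM values were 265 in N2_Cd_Zn, 63.9 in N2_Cd, 188 in N2_Zn and 66.3 in N2, against 7.44 in N0_Cd_Zn, 11.7 in N0_Cd, 1.66 in N0_Zn and 1.57 in N0, and the groups did not overlap. TRIAE_CS42_5BL_TGACv1_405157_AA1321340 had 8 counts against 579 (71.3-fold lower, 36 to 166), and the lowest ratio on 5AL was that of TRIAE_CS42_5AL_TGACv1_374914_AA1211800, with 0 counts against 3808.

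Under both metals the Ca/K levels were almost as far apart. In N2_Cd_Zn against N0_Cd_Zn, 1105 members were higher (22.7%, against 21.7% of all genes) and 913 lower (18.8%, against 17.8% of all genes), with 537 higher and 459 lower on 5AL and 568 higher and 454 lower on 5BL. TRIAE_CS42_5AL_TGACv1_374803_AA1209250 had 1206 counts against 32 (40.5-fold higher, 28.5 to 59.5), and TRIAE_CS42_5BL_TGACv1_405628_AA1331730 had 458 counts against 7 (70.3-fold higher, 33.8 to 176). Both genes were higher in every N2 library than in any N0 library. The lowest ratio on 5AL was that of TRIAE_CS42_5AL_TGACv1_374732_AA1207760, with 0 counts against 728 (at least 226-fold lower). On 5BL TRIAE_CS42_5BL_TGACv1_406045_AA1339740 had 0 counts against 676 (at least 209.7-fold lower). This comparison and that of N0_Cd_Zn with N0 rest on the library that stood apart, and within the other 3 Ca/K pairs the members apart numbered 1397, 1083 and 2052.

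Across the libraries, N0_Zn and N0_Cd_Zn each held more of the extreme values than any other library. Of the 4858 members, 1030 (21.2%, against 22.2% of all genes) were highest in N0_Zn and 978 (20.1%, against 18.4%) in N0_Cd_Zn. The lowest value lay in N0_Zn for 1167 members (24%, against 21.7%) and in N0_Cd_Zn for 1094 (22.5%, against 21.0%). The other 6 libraries each held the highest value of 7.16% to 13.0% of members and the lowest of 6.42% to 10.6%. Over the 7 libraries without N0_Cd_Zn, N0_Zn held the highest value of 1102 members (22.7%, against 23.7% of all genes) and the lowest of 1331 (27.4%, against 24.4%).

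Recurrence over treatments was described by counting members at least 2-fold apart in the same direction in all 4 pairs of libraries that differ in 1 factor. For Ca/K, 131 members were higher in all 4 pairs (2.70%, against 2.39% of all genes) and 68 lower (1.40%, against 1.37%). Without the pair of N2_Cd_Zn and N0_Cd_Zn the other 3 pairs gave 267 higher (5.50%, against 5.09% of all genes) and 224 lower (4.61%, against 5.4%). Without the pair of N2_Cd and N0_Cd they gave 245 higher (5.04%, against 4.23% of all genes) and 93 lower (1.91%, against 2.01%). Of those higher in all 4 pairs, 57 lay on 5AL and 74 on 5BL, and of those lower, 33 and 35. The largest mean log2 ratio on 5AL was 4.61 ± 1.09 (SD over 4 pairs) for TRIAE_CS42_5AL_TGACv1_375188_AA1217460, with CPM values of 2.2 in N2_Cd_Zn, 8.05 in N2_Cd, 3.62 in N2_Zn and 0.722 in N2, against 0 in N0_Cd_Zn, 0.12 in N0_Cd, 0 in N0_Zn and 0 in N0. On 5BL it was 5.05 ± 2.21 for TRIAE_CS42_5BL_TGACv1_404693_AA1308580, with CPM values of 10.3 in N2_Cd_Zn, 16.6 in N2_Cd, 11.4 in N2_Zn and 3.21 in N2, against 0.0929 in N0_Cd_Zn, 0.0400 in N0_Cd, 0.159 in N0_Zn and 0.662 in N0. Both genes were nearly unread at basal Ca/K, where the size of a log2 ratio depends on the prior count. The largest negative means were -5.98 ± 3.24 for TRIAE_CS42_5AL_TGACv1_375389_AA1220900 and -4.82 ± 1.60 for TRIAE_CS42_5BL_TGACv1_405157_AA1321340. The 5AL gene had CPM values of 0 in N2_Cd_Zn, 0 in N2_Cd, 0 in N2_Zn and 0.16 in N2, against 0.139 in N0_Cd_Zn, 14.1 in N0_Cd, 32.6 in N0_Zn and 18.7 in N0, so that N0_Cd_Zn was as low as the N2 libraries.

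For Cd, 29 members were higher in all 4 pairs (0.597%, against 0.28% of all genes), 12 on 5AL (0.5%) and 17 on 5BL (0.691%), and 5BL ranked 1 and 5AL ranked 5 among the 27 arms. The share over the other A and B arms was 0.291%, and the difference was not tested. Only 2 members were lower in all 4 pairs, both on 5BL (0.0412%, against 0.0447% of all genes). The 29 genes lay on 28 scaffolds, as a single scaffold held a pair of them. They were weakly read, with a median of the mean CPM of 2.65 on each arm and none at 20 CPM, and 10 of them were among the 3135 members with a mean of at least 5 CPM (0.319%, against 0.169% of all genes at that level). Without the pair of N0_Cd_Zn and N0_Zn, 90 members were higher in the other 3 pairs (1.85%, against 1.32% of all genes) and 47 lower (0.967%, against 0.835%). Without the pair of N2_Cd_Zn and N2_Zn, 69 were higher (1.42%, against 1.08% of all genes) and 27 lower (0.556%, against 0.868%).

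Some of the better read of these 29 genes had like profiles on both arms. TRIAE_CS42_5AL_TGACv1_374690_AA1206640 (1041 bp) had CPM values of 11.5 in N2_Cd_Zn, 52.8 in N2_Cd, 11.7 in N0_Cd_Zn and 7.08 in N0_Cd, against 2.02 in N2_Zn, 3.45 in N2, 1.66 in N0_Zn and 0.662 in N0. TRIAE_CS42_5BL_TGACv1_404484_AA1301580 (1029 bp) had CPM values of 14.9 in N2_Cd_Zn, 56.2 in N2_Cd, 12.6 in N0_Cd_Zn and 7.92 in N0_Cd, against 2.61 in N2_Zn, 8.86 in N2, 1.03 in N0_Zn and 1.65 in N0. Both peaked in N2_Cd. TRIAE_CS42_5AL_TGACv1_376998_AA1243120 (1701 bp) had CPM values of 11.6 in N2_Cd_Zn, 48.5 in N2_Cd, 14.8 in N0_Cd_Zn and 23.7 in N0_Cd, against 3.21 in N2_Zn, 3.73 in N2, 3.17 in N0_Zn and 3.68 in N0. TRIAE_CS42_5BL_TGACv1_407857_AA1360010 (1470 bp) had CPM values of 12.5 in N2_Cd_Zn, 42.9 in N2_Cd, 13.7 in N0_Cd_Zn and 29.2 in N0_Cd, against 2.24 in N2_Zn, 3.21 in N2, 3.76 in N0_Zn and 5.46 in N0. The libraries with and without Cd did not overlap in these 4 genes, except in TRIAE_CS42_5BL_TGACv1_404484_AA1301580, where N0_Cd was below N2. The choice of these 4 was made after seeing their values, and whether any of them are homoeologous copies was not tested.

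**Figure D3:**
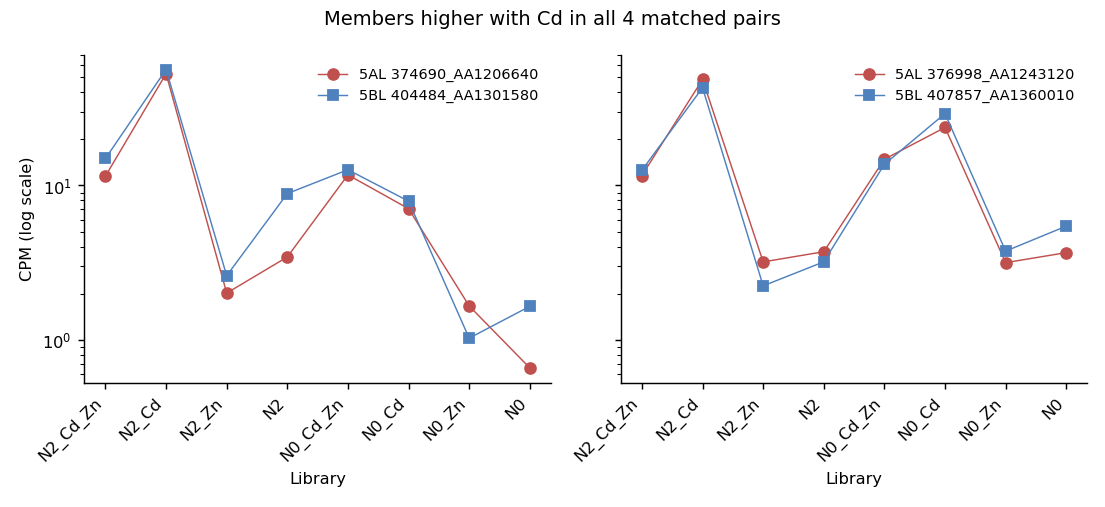
CPM (log axis) over the 8 libraries of 4 members that were higher with Cd in all 4 matched pairs, with 1 gene of 5AL and 1 of 5BL in each panel. The lines of a panel follow each other, and every gene is highest in N2_Cd, between 42.9 and 56.2 CPM.

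By the named rule, the largest mean log2 ratios for Cd were 3.69 ± 2.09 (SD over 4 pairs) for TRIAE_CS42_5AL_TGACv1_373966_AA1185670 and 3.44 ± 1.72 for TRIAE_CS42_5BL_TGACv1_404540_AA1303450. The 5AL gene had CPM values of 7.65 in N2_Cd_Zn, 3.27 in N2_Cd, 3.49 in N0_Cd_Zn and 9.24 in N0_Cd, against 1.56 in N2_Zn, 0.401 in N2, 0.317 in N0_Zn and 0 in N0, and since N0 had no read, the ratio to N0 depends on the prior count. Of the genes lower with Cd, TRIAE_CS42_5BL_TGACv1_405510_AA1329040 averaged -1.93 ± 0.64, with CPM values of 0.45 in N2_Cd_Zn, 0.782 in N2_Cd, 0.465 in N0_Cd_Zn and 0.52 in N0_Cd, against 1.6 in N2_Zn, 7.02 in N2, 1.51 in N0_Zn and 1.45 in N0.

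For Zn, recurrent members were few. Only 2 were higher in all 4 pairs (0.0412%, against 0.0408% of all genes) and 7 lower (0.144%, against 0.225%), 3 of them on 5AL and 4 on 5BL. TRIAE_CS42_5AL_TGACv1_378277_AA1252490 averaged -3.09 ± 1.25 (SD over 4 pairs), with CPM values of 0.35 in N2_Cd_Zn, 0 in N2_Zn, 1.35 in N0_Cd_Zn and 0.119 in N0_Zn, against 3.08 in N2_Cd, 2.85 in N2, 6.6 in N0_Cd and 0.91 in N0, and TRIAE_CS42_5BL_TGACv1_407792_AA1359610 averaged -3.07 ± 1.70. TRIAE_CS42_5BL_TGACv1_405972_AA1338420 was higher, at 2.07 ± 1.15, with CPM values of 9.35 in N2_Cd_Zn, 4.49 in N2_Zn, 14.4 in N0_Cd_Zn and 92.4 in N0_Zn, against 0.782 in N2_Cd, 2.25 in N2, 6.56 in N0_Cd and 15.7 in N0. Leaving out 1 pair at a time gave 4 to 36 higher and 15 to 100 lower, with the top values without the pair of N0_Cd_Zn and N0_Cd (0.741% higher, against 0.788% of all genes, and 2.06% lower, against 1.67%).

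Effects that recur over libraries were tested with edgeR's quasi-likelihood test on all 64580 genes that passed the filter on low counts, of which 4853 were members. The additive model of Ca/K, Cd and Zn left 4 residual degrees of freedom, and p-values measure recurrence over libraries of different treatments. No member passed a Benjamini-Hochberg adjusted p of 0.05 for Ca/K (0.00155% of all genes passed), Cd (0% of all genes), Zn (0%) or the Cd by Zn interaction (0%). At an unadjusted p under 0.05 there were 864 members for Ca/K (17.8%, against 16.4% of all genes), 169 for Cd (3.48%, against 2.97%), 102 for Zn (2.10%, against 1.97%) and 334 for the interaction (6.88%, against 7.62%). DESeq2 called 578 members for Ca/K (295 higher and 283 lower, against 10.5% of all genes), 40 for Cd (37 higher and 3 lower, against 0.458%), 12 for Zn (3 higher and 9 lower, against 0.245%) and 110 for the interaction (92 higher and 18 lower, against 2.31%). Without N0_Cd_Zn, edgeR called 335 members for Ca/K, 119 higher and 216 lower, against 5.65% of all genes, and 0 for Cd, Zn and the interaction (0% of all genes for the interaction, which N2_Cd_Zn alone then carries, while 6.09% of members and 7.18% of all genes had an unadjusted p under 0.05). Without that library DESeq2 called 1098 members for Ca/K (586 higher and 512 lower, against 18.9% of all genes) and 194 for Cd (150 higher and 44 lower, against 2.89%). It called 251 for Zn (105 higher and 146 lower, against 4.29%) and 36 for the interaction (28 higher and 8 lower, against 0.949%).

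For Ca/K the smallest p on 5BL was that of TRIAE_CS42_5BL_TGACv1_405636_AA1331870, which had CPM values of 67.5 in N2_Cd_Zn, 51.1 in N2_Cd, 54.8 in N2_Zn and 71.8 in N2, against 7.62 in N0_Cd_Zn, 13.2 in N0_Cd, 6.46 in N0_Zn and 9.39 in N0. The groups did not overlap, and edgeR gave a log2 fold change of 2.66 (SE 0.26), with 2.95e-05 as the p before adjustment and 0.0570 after it. On 5AL TRIAE_CS42_5AL_TGACv1_376064_AA1231780 had CPM values of 27.5 in N2_Cd_Zn, 19.1 in N2_Cd, 22.7 in N2_Zn and 25.4 in N2, against 4.65 in N0_Cd_Zn, 4.76 in N0_Cd, 5.55 in N0_Zn and 4.13 in N0. It too did not overlap, and edgeR estimated 2.18 on the log2 scale (SE 0.22, adjusted p of 0.0570).

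For Cd the smallest p belonged to TRIAE_CS42_5AL_TGACv1_374507_AA1201930 on 5AL, which had CPM values of 6.7 in N2_Cd_Zn, 13.8 in N2_Cd, 47.2 in N0_Cd_Zn and 54 in N0_Cd, against 1.65 in N2_Zn, 1.6 in N2, 5.78 in N0_Zn and 7.77 in N0. Its edgeR log2 fold change was 2.70 (SE 0.27), with 3.77e-05 as its p before adjustment and 1 after it. Within each Ca/K level all values with Cd exceeded those without, although N2_Cd_Zn was below N0. On 5BL TRIAE_CS42_5BL_TGACv1_405731_AA1334060 had CPM values of 9.6 in N2_Cd_Zn, 10.2 in N2_Cd, 11.3 in N0_Cd_Zn and 14.4 in N0_Cd, against 2.06 in N2_Zn, 2.41 in N2, 1.86 in N0_Zn and 3.31 in N0. Here the groups did not overlap at all, the 4 ratios were the most even of the 29 recurrent genes (mean log2 ratio 2.16 ± 0.11, SD over 4 pairs), and edgeR gave 2.19 (SE 0.24) and an adjusted p of 1.

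For Zn the smallest p was that of TRIAE_CS42_5AL_TGACv1_377210_AA1244890, with CPM values of 7.6 in N2_Cd_Zn, 3.66 in N2_Zn, 6.46 in N0_Cd_Zn and 3.88 in N0_Zn, against 20.1 in N2_Cd, 11 in N2, 16.5 in N0_Cd and 7.65 in N0. Its edgeR log2 fold change was -1.28 (SE 0.23), with an adjusted p of 1. On 5BL TRIAE_CS42_5BL_TGACv1_405502_AA1328920 had CPM values of 3.9 in N2_Cd_Zn, 3.57 in N2_Zn, 4.00 in N0_Cd_Zn and 3.25 in N0_Zn, against 10.1 in N2_Cd, 8.46 in N2, 7.64 in N0_Cd and 8.6 in N0, with a log2 fold change of -1.20 (SE 0.24) and an adjusted p of 1 in edgeR's test. In the 5BL gene every value with Zn was below every value without.

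The Cd by Zn interaction asks whether the Cd ratio differs between libraries with and without Zn. On 5AL TRIAE_CS42_5AL_TGACv1_374943_AA1212450 had CPM values of 46.8 in N2_Cd_Zn, 5.56 in N2_Cd, 66.5 in N0_Cd_Zn and 3.72 in N0_Cd, against 1.74 in N2_Zn, 14.6 in N2, 2.54 in N0_Zn and 28.7 in N0. Cd was thus higher with Zn and lower without it at both Ca/K levels, and edgeR's interaction term was 6.60 (SE 0.73, log2 scale), with a p of 0.000152 before adjustment and 0.637 after it. TRIAE_CS42_5BL_TGACv1_404988_AA1317140 on 5BL had CPM values of 89.7 in N2_Cd_Zn, 7.22 in N2_Cd, 136 in N0_Cd_Zn and 4.64 in N0_Cd, against 3.39 in N2_Zn, 38.4 in N2, 4.32 in N0_Zn and 86.3 in N0. The order of its libraries within each Ca/K level was the same, and its interaction term was 7.88 (SE 0.82) with an adjusted p of 0.637 in edgeR's test. DESeq2 gave an adjusted p of 7.23e-12 for the 5AL gene and of 1.63e-16 for the 5BL gene. Both genes had their highest values in the libraries with both metals and without metal, and their lowest in those with a single metal.

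The same pattern, with Cd lower by at least 2-fold without Zn and higher by at least 2-fold with Zn at both Ca/K levels, was seen in 34 members (0.7%, against 0.518% of all genes), 17 on each arm. The opposite pattern was seen in 8 members (0.165%, against 0.233% of all genes), 4 on each arm. Of the 4 Cd pairs behind each count 1 is N0_Cd_Zn against N0_Zn, so the counts rest in part on the library that stood apart. At raised Ca/K alone, without that library, the first pattern was seen in 90 members (1.85%, against 1.99% of all genes) and the opposite in 73 of the 4858 (against 1.65% of all genes). Both named genes keep the first pattern there.

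Neighbours were then compared. The members of 5AL lay on 1435 scaffolds, of which 861 held a single member, 334 held 2 and 240 held 3 or more. Those of 5BL lay on 1518 scaffolds, with 934, 363 and 221 in the same classes. The scaffold with the most members had 9 on 5AL, of 11 listed genes, and 8 on 5BL, of 16 listed genes. Members of a scaffold differed widely in level and spread. On that of 5AL the mean CPM of members ran from 2.32 to 10.7 and the SD of log2 CPM from 0.30 to 2.94, and on that of 5BL the mean CPM ran from 1.65 to 49.5 and the SD from 0.12 to 1.03.

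Consecutive genes of a scaffold were slightly more alike over the 8 libraries than genes on different scaffolds. The median Pearson r of log2 CPM over 8 libraries was 0.117 for 800 adjacent pairs of 5AL members and 0.148 for 762 pairs of 5BL members. For pairs of members of the same arm on different scaffolds it was 0.0018 on 5AL and 0.0011 on 5BL. All pairs share the same libraries and depth, and medians this small are a description only. Close pairs were more frequent among neighbours. An r above 0.8 was found in 7.63% of adjacent pairs on 5AL and 9.58% on 5BL, against 4.08% and 4.27% of pairs on different scaffolds. Among the 27 arms the median ran from 0.0626 to 0.236, with 5AL ranked 17 and 5BL ranked 11, so the group 5 long arms were in the middle. At 2 steps the median was 0.0051 on 5AL and 0.0601 on 5BL.

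The direction of change was shared more often between neighbours. Among adjacent pairs with both genes 2-fold apart, 83 of 112 (74.1%) went the same way in N0_Cd against N0, against 52.2% of such pairs on different scaffolds. In N2_Zn against N0_Zn it was 182 of 267 (68.2%, against 52.2%), and in N2_Cd_Zn against N2 62 of 82 (75.6%, against 49.9%). The lowest share was 61.8% (84 of 136, against 50.2%) in N0_Cd_Zn against N0. Each of the 10 comparisons had a higher share among neighbours on both arms than among pairs on different scaffolds, although several of them share a library. Whether neighbours are tandem copies that share reads was not tested. Without adjacent pairs of like length (within 10%) the median r was 0.0886 on 5AL and 0.134 on 5BL.

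**Figure D4:**
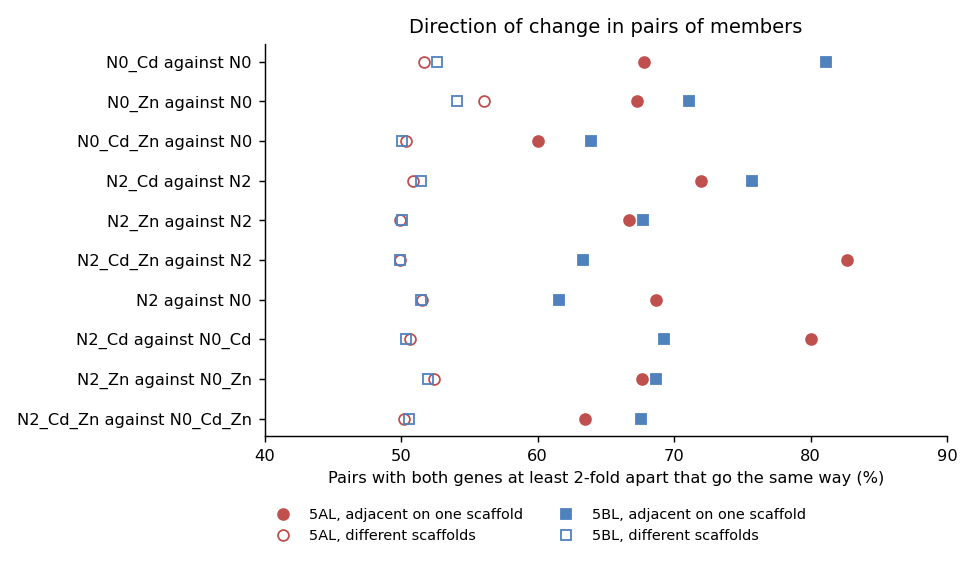
Share of pairs of members, both at least 2-fold apart, that went the same way (horizontal axis, percent, from 40 to 90) in each comparison. Filled symbols are adjacent genes of a scaffold and open symbols are genes of the same arm on different scaffolds; filled symbols lie at 60.0% or more in every comparison and open ones between 49.9% and 56.1%.

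A run of 3 neighbours on 5AL held TRIAE_CS42_5AL_TGACv1_374914_AA1211800, the 5AL member with the largest SD of log2 CPM, 3.81, among those of at least 20 CPM. It had CPM values of 11.1 in N2_Cd_Zn, 0.184 in N2_Cd, 0 in N2_Zn and 2.73 in N2, against 14.9 in N0_Cd_Zn, 28.7 in N0_Cd, 151 in N0_Zn and 61.3 in N0. TRIAE_CS42_5AL_TGACv1_374914_AA1211810, the next gene, had CPM values of 6.5 in N2_Cd_Zn, 0.276 in N2_Cd, 0 in N2_Zn and 3.21 in N2, against 5.3 in N0_Cd_Zn, 19.7 in N0_Cd, 65.1 in N0_Zn and 22.6 in N0. TRIAE_CS42_5AL_TGACv1_374914_AA1211820 had CPM values of 61.6 in N2_Cd_Zn, 1.15 in N2_Cd, 0.229 in N2_Zn and 11.1 in N2, against 82.7 in N0_Cd_Zn, 187 in N0_Cd, 261 in N0_Zn and 97.1 in N0. All 3 genes were highest in N0_Zn and lowest in N2_Zn, and neighbours correlated at r = 0.991 and 0.974 over 8 libraries. Their lengths were 2645, 2474 and 1940 bp. The remaining gene listed on that scaffold had no read in any library.

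On 5BL the longest run was made of weakly read genes. The scaffold whose first member is TRIAE_CS42_5BL_TGACv1_404476_AA1301080 held 6 members of 770 to 1202 bp, and all 6 were at least 2-fold higher in N0_Cd than in N0. They had 2.44 to 9.24 CPM in N0_Cd, against 0.207 to 1.74 CPM in N0, and 0.0929 to 0.697 CPM in N0_Cd_Zn. They were also all higher in N2_Zn than in N0_Zn and in N2_Cd_Zn than in N0_Cd_Zn. The 5 correlations between neighbours lay between 0.856 and 0.958 over 8 libraries. The gene listed just before this run, TRIAE_CS42_5BL_TGACv1_404476_AA1301070, was no member, with a mean of 0.761 CPM, and went the other way with Cd. It had 0 CPM in N0_Cd against 1.61 CPM in N0, and 0.0460 CPM in N2_Cd against 2.29 CPM in N2. On 5AL a run of 4 genes of 767 to 1035 bp that starts with TRIAE_CS42_5AL_TGACv1_375074_AA1215500 was higher in N0_Cd, with 3.40 to 6.72 CPM against 0 to 0.207 CPM in N0, and in N2_Cd, with 3.27 to 5.56 CPM against 0 to 0.401 CPM in N2. It was also higher by at least 2-fold in N0_Zn, at 0.0792 to 0.990 CPM against those values in N0, with 2 to 25 reads a gene in N0_Zn. The next member of that scaffold, TRIAE_CS42_5AL_TGACv1_375074_AA1215540, stayed between 14.6 and 24.7 CPM in all libraries. On the other side, the member TRIAE_CS42_5AL_TGACv1_375074_AA1215460 was higher with Cd too, at 14.4 CPM in N0_Cd against 1.41 CPM in N0. Between it and the run, TRIAE_CS42_5AL_TGACv1_375074_AA1215470 and TRIAE_CS42_5AL_TGACv1_375074_AA1215480 had 1.32 and 2.12 CPM in N0_Cd against 0.0413 CPM each in N0. Their means were below 1 CPM, so the threshold set where the run starts. The choice of these runs was made after seeing their values.

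**Figure D5:**
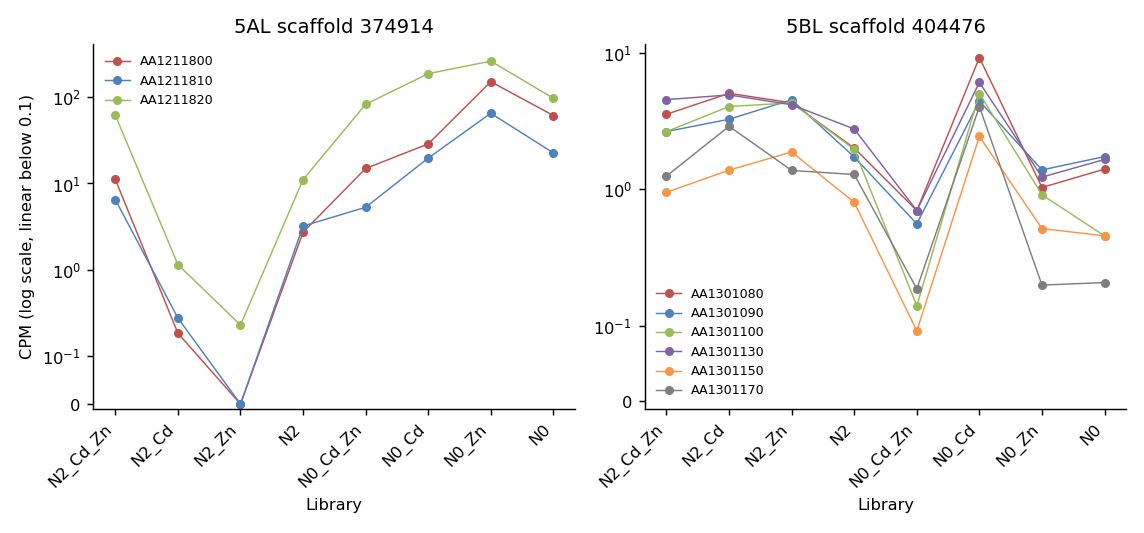
CPM of neighbouring members over the 8 libraries (log axis, linear below 0.1 CPM), with the 3-gene run of 5AL on the left and the 6-gene run of 5BL on the right. The members drawn for a scaffold move together, from 0 to 261 CPM on the left and from 0.0929 to 9.24 CPM on the right, and listed genes below the threshold are not drawn.

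Among well read and variable neighbours (both with a mean of at least 20 CPM and an SD of log2 CPM of at least 1) 2 adjacent pairs were found on 5AL and 1 on 5BL. TRIAE_CS42_5AL_TGACv1_373974_AA1186220 had CPM values of 54 in N2_Cd_Zn, 284 in N2_Cd, 88.3 in N2_Zn, 59.9 in N2, 8.27 in N0_Cd_Zn, 190.0 in N0_Cd, 4.64 in N0_Zn and 27.8 in N0 and correlated with its neighbour TRIAE_CS42_5AL_TGACv1_373974_AA1186210 at r = 0.747. The other 5AL pair, TRIAE_CS42_5AL_TGACv1_375844_AA1227900 and TRIAE_CS42_5AL_TGACv1_375844_AA1227910, had r = 0.437. The 5BL pair went opposite ways, with r = -0.523. TRIAE_CS42_5BL_TGACv1_406335_AA1344180 had CPM values of 61.3 in N2_Cd_Zn, 33.7 in N2_Cd, 49.2 in N2_Zn and 29.2 in N2, against 3.67 in N0_Cd_Zn, 24.2 in N0_Cd, 10.9 in N0_Zn and 10.3 in N0, and TRIAE_CS42_5BL_TGACv1_406335_AA1344190 had CPM values of 64.7 in N2_Cd_Zn, 25.3 in N2_Cd, 34.1 in N2_Zn and 37.1 in N2, against 81.9 in N0_Cd_Zn, 97.6 in N0_Cd, 212 in N0_Zn and 154 in N0. The first of them was highest in N2_Cd_Zn and the second in N0_Zn.

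The arms were also searched for genes with parallel profiles, a description added after the data were seen. Among members with an SD of log2 CPM of at least 1 (641 on 5AL and 663 on 5BL), 235 pairs were each other's best match at r of at least 0.95 over 8 libraries, 36.7% of these 5AL members and 35.4% of these 5BL members. In 55 of the 235 pairs (23.4%) the gene lengths were within 10% of each other, against 12.7% of all possible pairs. Matching 5AL with 7BL, 1BL or 4BL, or 7AL, 1AL or 4AL with 5BL, gave 11.0% to 14.7%, while homoeologous arms elsewhere gave 25.3% (7AL with 7BL) and 27.3% (1AL with 1BL). As 5AL exchanged its end with 4AL, the pairings of 4AL with 5BL (11.0%) and 5AL with 4BL (14.6%) may include homoeologous genes, which was not tested. The r values share 8 libraries and the best of many candidates was taken, so r itself is only a description. The pair with the highest r, 0.998, was not of like length, at 2530 bp on 5AL and 1957 bp on 5BL. The pair given next is of like length and was chosen after its values were seen. TRIAE_CS42_5AL_TGACv1_376577_AA1238680 (3398 bp) had CPM values of 10.3 in N2_Cd_Zn, 10.8 in N2_Cd, 8.33 in N2_Zn and 16.4 in N2, against 48.4 in N0_Cd_Zn, 21.2 in N0_Cd, 41.3 in N0_Zn and 47 in N0. Its match TRIAE_CS42_5BL_TGACv1_406739_AA1349410 (3546 bp) had CPM values of 11.4 in N2_Cd_Zn, 11.8 in N2_Cd, 7.83 in N2_Zn and 15.9 in N2, against 43.2 in N0_Cd_Zn, 21.4 in N0_Cd, 42.2 in N0_Zn and 51.1 in N0, and r was 0.995. Both were higher in every N0 library than in any N2 library.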

How the data were processed

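RNA of wheat roots from 8 treatments, 1 library each, was extracted with Trizol and sequenced with Illumina TruSeq chemistry per the labels' protocols, whose design text also names SMRT sequencing. Gene counts and FPKM values were deposited by the authors, and Bowtie2 2.0.6 and TopHat2 2.0.12 were used per the submitters' processing notes. The sources used here do not give the counting program, its strand setting or the genome build, and identifiers follow the TGACv1 assembly of the cultivar Chinese Spring. The deposited FPKM equals each count over the gene's length and the column's sum, and lengths recovered from it were whole numbers within a relative deviation of 2.30e-14. All 16 value columns were matched to a sample and 0 were left out.

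CPM was the count scaled by the column sum. Library totals were 20000875 to 25241789 counts, so that 3 counts, the floor used for a gene at 0, equal 0.119 to 0.150 CPM. Intervals are at 95% (Wilson for shares) and cover counting error only. Ratios of single libraries used TMM scaling and a prior count of 2 with a threshold of 2-fold. Effects were tested with edgeR 4.0.16 in R 4.3.3 (filterByExpr with a minimum count of 10, TMM, robust quasi-likelihood fit, Benjamini-Hochberg at 0.05) over 64580 genes. The additive model of Ca/K, Cd and Zn had 4 residual degrees of freedom and the one with the Cd by Zn interaction had 3. The p-values measure recurrence over libraries of different treatments. DESeq2 1.42.0, other scalings, prior counts, filters and left-out libraries were the alternatives, and the code was tested on simulated data. Summaries used Python 3.11.15, pandas 2.3.3, numpy 2.4.6 and scipy 1.17.1.

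The members and lists were chosen with earlier results of these data known. Genes were named by rule: per arm, the 2 with the highest mean CPM, those with the smallest and largest SD of log2 CPM among members of at least 20 CPM, those with the largest mean log2 ratio among members apart in all 4 pairs, the highest and lowest ratio of each comparison, neighbours with the highest and lowest r, the members at the threshold, and the smallest edgeR p of each effect. Genes named outside it are said to have been chosen after their values were seen.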

Additional observations from a re-analysis of the deposited data

Results flagged for a closer look

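Reads were listed on genes of the long arm of chromosome 5D, a chromosome that tetraploid wheat lacks. These genes are no members, though 388 of them are among the 51500 genes that the members were set against. The 4395 listed 5DL genes took 0.300% of the counts in N2_Cd_Zn, 0.338% in N2_Cd, 0.312% in N2_Zn, 0.307% in N2, 0.311% in N0_Cd_Zn, 0.287% in N0_Cd, 0.325% in N0_Zn and 0.297% in N0. These shares lay far below those of 5AL and 5BL in every library.

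The Cd ratio changed its direction between libraries with and without added Zn in some members, and this difference was not tested for the counts. Cd was lower without Zn and higher with Zn at both Ca/K levels in 17 members of 5AL and 17 of 5BL, and the opposite was seen in 4 members of 5AL and 4 of 5BL.

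Among the named genes, the values below are differences between mean log2 ratios at 2 levels of another factor, with every pair of one level moving against every pair of the other. For Cd between Zn levels and for Zn between Cd levels this difference is the same number by arithmetic, so the second contrast adds no observation. TRIAE_CS42_5BL_TGACv1_404988_AA1317140 had a difference of 7.86 and was listed for both contrasts. TRIAE_CS42_5AL_TGACv1_374943_AA1212450 had a difference of 6.57 and TRIAE_CS42_5BL_TGACv1_404374_AA1297310 one of 6.35, and both were also listed for both contrasts. TRIAE_CS42_5AL_TGACv1_375169_AA1217160 had 7.28 and TRIAE_CS42_5BL_TGACv1_406687_AA1348610 had 3.96, and these were listed for Cd between Zn levels alone, although the number is the same for the other contrast. TRIAE_CS42_5BL_TGACv1_406687_AA1348610 is the 5BL member just above the mean of 1 CPM. TRIAE_CS42_5BL_TGACv1_404374_AA1297310 had 5 counts in N0, 0 in N0_Cd and 1 in N0_Zn, so its difference depends on the prior count of 2. Each difference also uses N0_Cd_Zn, the library that stood apart. In the test of this difference, the Cd by Zn interaction, edgeR gave an adjusted p of 0.637 for each of these 5 genes. DESeq2 gave adjusted p of 1.63e-16, 7.23e-12, 0.00300, 3.94e-05 and 0.139 in the order of the genes above. TRIAE_CS42_5BL_TGACv1_404755_AA1310030 had a difference of 4.82 in the Ca/K ratio between Zn levels, which was not tested.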

How the results depend on the processing

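Of the values computed under other settings, 185 stayed within 1.5 times the reported count or inside a spread over genes, gene pairs or libraries, and 56 moved further. Genes and gene pairs are not independent replicates, so such a spread serves as a yardstick only. Keeping only the 3135 members with a mean of at least 5 CPM gave 344 higher and 185 lower in N0_Cd against N0, 207 and 356 in N0_Zn against N0, 311 and 458 in N0_Cd_Zn against N0, 319 and 149 in N2_Cd against N2, 261 and 163 in N2_Zn against N2, and 331 and 247 in N2_Cd_Zn against N2. The same filter gave 392 and 382 in N2 against N0 (12.5% and 12.2%, against 12.2% and 14.2% of all genes) and 299 and 281 in N2_Cd against N0_Cd (9.54% and 8.96%, against 8.59% and 10.4%). It also gave 692 and 505 in N2_Zn against N0_Zn and 616 and 469 in N2_Cd_Zn against N0_Cd_Zn, stated here without a share over all genes. These counts come from fewer genes. Members apart in all 4 pairs at that level numbered 73 higher for Ca/K, 10 higher (0.319%, against 0.169% of all genes) and 0 lower for Cd, and 1 higher and 3 lower for Zn. Those lower for Cd were 1 without a scaling factor and 4 with a prior count of 0.5. Apart from the 10 for Cd, these counts over 4 pairs are given without a share over all genes. Leaving out 1 pair, which relaxes the criterion, gave 158 to 267 higher and 76 to 224 lower for Ca/K, 36 to 90 higher and 4 to 47 lower for Cd, and 4 to 36 higher and 15 to 100 lower for Zn. The top counts were 5.50% and 4.61% of members for Ca/K (against 5.09% and 5.40% of all genes). They were 1.85% and 0.967% for Cd (against 1.32% and 0.835%) and 0.741% and 2.06% for Zn (against 0.788% and 1.67%).

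DESeq2 called 578 members for Ca/K, 40 for Cd, 12 for Zn and 110 for the Cd by Zn interaction where edgeR called none, and the cause was not tested. Leaving out 1 library at a time, edgeR called 0 to 335 members for Ca/K, the top value without N0_Cd_Zn, and none for Cd, Zn or (leaving out N0_Cd_Zn) the interaction. DESeq2 without N0_Cd_Zn, chosen after seeing the data, called 1098 for Ca/K, 194 for Cd, 251 for Zn and 36 for the interaction. At raised Ca/K alone, likewise added, 90 members had Cd lower without and higher with Zn, and 73 the opposite, under a criterion of fewer pairs. Without a scaling factor the higher share of members apart moved to 71.7% in N2 against N0 (1092 higher and 432 lower) and to 34.7% in N2_Zn against N2 (330 and 621). With DESeq2's size factors the balance turned in N2_Zn against N2 (474 higher and 473 lower) and N2_Cd_Zn against N2 (611 and 579). At a length tolerance of 5%, 24 of the 235 cross-arm pairs had like lengths (10.2%, against 6.23% of all possible pairs), an alternative chosen after seeing the data. No paired analysis was possible because each treatment has 1 library and the labels give no replicate numbers. Depth limits weakly read members most, since 3 counts correspond to 0.119 to 0.150 CPM.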
